A study of Macaca mulatta with 52 samples.

Results

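The genes described here belong to the integrated stress response. They are ATF4, ATF3, DDIT3, PPP1R15A, TRIB3, ASNS, CHAC1 and SESN2, 8 genes chosen by their symbols and not by their counts. The deposited table held 26309 gene identifiers, of which 15078 could be paired with a name. A named row was found for 7 of the 8 genes, and all 7 passed the filter on low counts in both library kits. No row carried the name ATF4, so it has no value here.

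RNA of single rhesus macaque embryos before implantation was sequenced, with libraries from 2 kits. The SoLo kit makes low-input libraries and removes ribosomal RNA sequences during preparation, and the SPIA kit amplifies cDNA linearly. Matched columns gave 4 8-cell embryos, 3 morulas and 6 expanded blastocysts in SoLo, and in SPIA 9 8-cell embryos, 11 morulas, 14 blastocysts labelled expanded and 2 labelled delayed. The question the design implies is how transcript levels differ between these stages. All embryos came from oocytes matured in vivo in females given FSH and hCG, were fertilised in vitro, and were grown in HECM-9 medium, to which calf serum was later added. Relaxin was present in the medium of some embryos. The labels do not say which ones, so relaxin entered no comparison.

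In the integrated stress response, a kinase that senses amino acid shortage, unfolded protein, haem shortage or viral RNA phosphorylates the translation factor eIF2alpha, which lowers general protein synthesis and favours translation of the ATF4 mRNA. The ATF4 protein then raises transcription of genes for amino acid synthesis and uptake, for redox balance and for further transcription factors such as ATF3 and DDIT3 (CHOP). The phosphatase subunit PPP1R15A closes the loop by directing dephosphorylation of eIF2alpha. Control of ATF4 is largely translational, so counts of these mRNAs describe transcript levels and not the activity of the kinases.

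Library totals ran from 5696436 to 10571608 counts in SoLo and from 600966 to 21044692 counts in SPIA. The shallowest library was expanded blastocyst 111715_05 in SPIA. Values are given as CPM, counts scaled to a common library size with TMM factors, and they were not divided by transcript length, so levels are compared between embryos and not between genes. Summed markers of genome activation at the 8-cell stage (4 genes) ran in SPIA from 197 to 584 CPM in 8-cell embryos, from 1.45 to 582 CPM in the morulas and from 0.487 to 45.5 CPM in expanded blastocysts. The morula at 582 CPM was 022916_02, which on these markers lay at the 8-cell level. Summed trophectoderm markers (4 genes) ran in SPIA from 0.862 to 18.0 CPM in 8-cell embryos, from 5.62 to 391 CPM in the morulas and from 45.7 to 996 CPM in expanded blastocysts. In SoLo this trophectoderm sum ran from 8.81 to 70.1 CPM in 8-cell embryos and from 1288 to 2459 CPM in expanded blastocysts. The 3 SoLo morulas stood at 7.46, 58.6 and 1118 CPM, so the highest of them lay near the lowest expanded blastocyst. Markers of cumulus and granulosa cells (10 genes with a row), which surround the oocyte and had been pipetted off, summed in SPIA to 1.45 to 1613 CPM in 8-cell embryos, 1.44 to 35.5 CPM in the morulas and 0.892 to 19.5 CPM in expanded blastocysts. In SoLo 8-cell embryos the same sum ran from 13.0 to 2251 CPM. Of these 10 markers, 9 had reads in the SPIA 8-cell embryos and all 10 in the SoLo ones. Embryos 020816_06, 020816_07 and 112815_02 led this sum in SPIA, with 386, 1613 and 757 CPM. Comparisons with the 8-cell stage were therefore repeated without these 3 embryos. The first block of digits in an embryo's name is a code from its title, whose meaning the labels do not give. Morulas and 8-cell embryos shared 1 such code, and expanded blastocysts shared none with either stage, so code and stage cannot be told apart there. An embryo is measured whole, so fewer cells with a transcript and less of it per cell cannot be told apart. P-values measure the spread between these embryos.

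In morulas against 8-cell embryos, edgeR called 2 of the 7 genes higher and 1 lower in SoLo, and 3 higher and 1 lower in SPIA. The genes TRIB3 and ASNS were higher and PPP1R15A was lower in both kits, and ATF3 was called higher in SPIA. Among all genes tested, 16.7% were called in SoLo and 19.4% in SPIA at an adjusted p under 0.05. By direction, 9.78% were called higher and 6.92% lower in SoLo, and 9.06% higher and 10.3% lower in SPIA. The median log2 fold change of the 7 genes was 0.64 in SoLo and 2.15 in SPIA, and that of all genes was -0.06 in SoLo and -0.14 in SPIA. The SoLo median includes a fitted value of DDIT3, which had no reads in the SoLo morulas. The kits share embryos, so they are not independent of each other. In the SPIA embryos that have no SoLo library (7 morulas and 5 8-cell embryos), 2 of the genes were called, ASNS higher (log2 fold change 4.59) and SESN2 lower (-3.21), beside 741 of 14789 genes in all. The calls lost there had log2 fold changes of 6.64 for TRIB3, -3.11 for PPP1R15A and 4.02 for ATF3 (adjusted p = 0.0700, 0.0572 and 0.133, in that order).

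Between expanded blastocysts and morulas, none of the 7 genes was called in SoLo and 4 were called lower in SPIA, namely ATF3, PPP1R15A, TRIB3 and CHAC1. Of all genes, 1.14% were called in SoLo and 14.7% in SPIA. By direction, 1.03% were called lower and 0.113% higher in SoLo, and 9.95% lower and 4.71% higher in SPIA. In SoLo, 1 of the 7 genes had an unadjusted p under 0.05 by edgeR, and DESeq2 called 0. The median log2 fold change of the 7 genes was -0.59 in SoLo and -1.94 in SPIA, and that of all genes was 0.05 in SoLo and -0.29 in SPIA. The SPIA median is the fitted value of DDIT3, which had no reads in the SPIA expanded blastocysts, so it is no measured fold. The SoLo median includes a fitted value of DDIT3, which had no reads in the SoLo morulas. In voom with this code as a random block, 0 of the 4 SPIA calls passed, with adjusted p between 0.0627 and 0.155, beside 2235 of all 15578 genes called. The correlation within codes was -0.03, and voom was not run without the block. The block and the change of method therefore cannot be told apart in these lost calls. The log2 fold changes in that fit were -1.84 for PPP1R15A, -2.28 for TRIB3, -2.55 for ATF3 and -2.40 for CHAC1.

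Between expanded blastocysts and 8-cell embryos, 2 genes were called higher and 2 lower in SoLo, and 2 higher and 4 lower in SPIA. The genes TRIB3 and ASNS were higher, and PPP1R15A and SESN2 lower, in both kits, and SPIA added lower calls for CHAC1 and DDIT3. Of all genes, 38.4% were called in SoLo and 36.6% in SPIA. By direction, 18.6% were called higher and 19.8% lower in SoLo, and 12.9% higher and 23.7% lower in SPIA. The medians of the 7 genes were -1.40 in SoLo and -2.35 in SPIA on the log2 scale, and those of all genes were -0.05 in SoLo and -0.43 in SPIA. The SPIA median includes a fitted value of DDIT3, which had no reads in the SPIA expanded blastocysts. The same embryos stand in more than 1 of these 3 comparisons, so their directions are not independent.

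**Figure D1:**
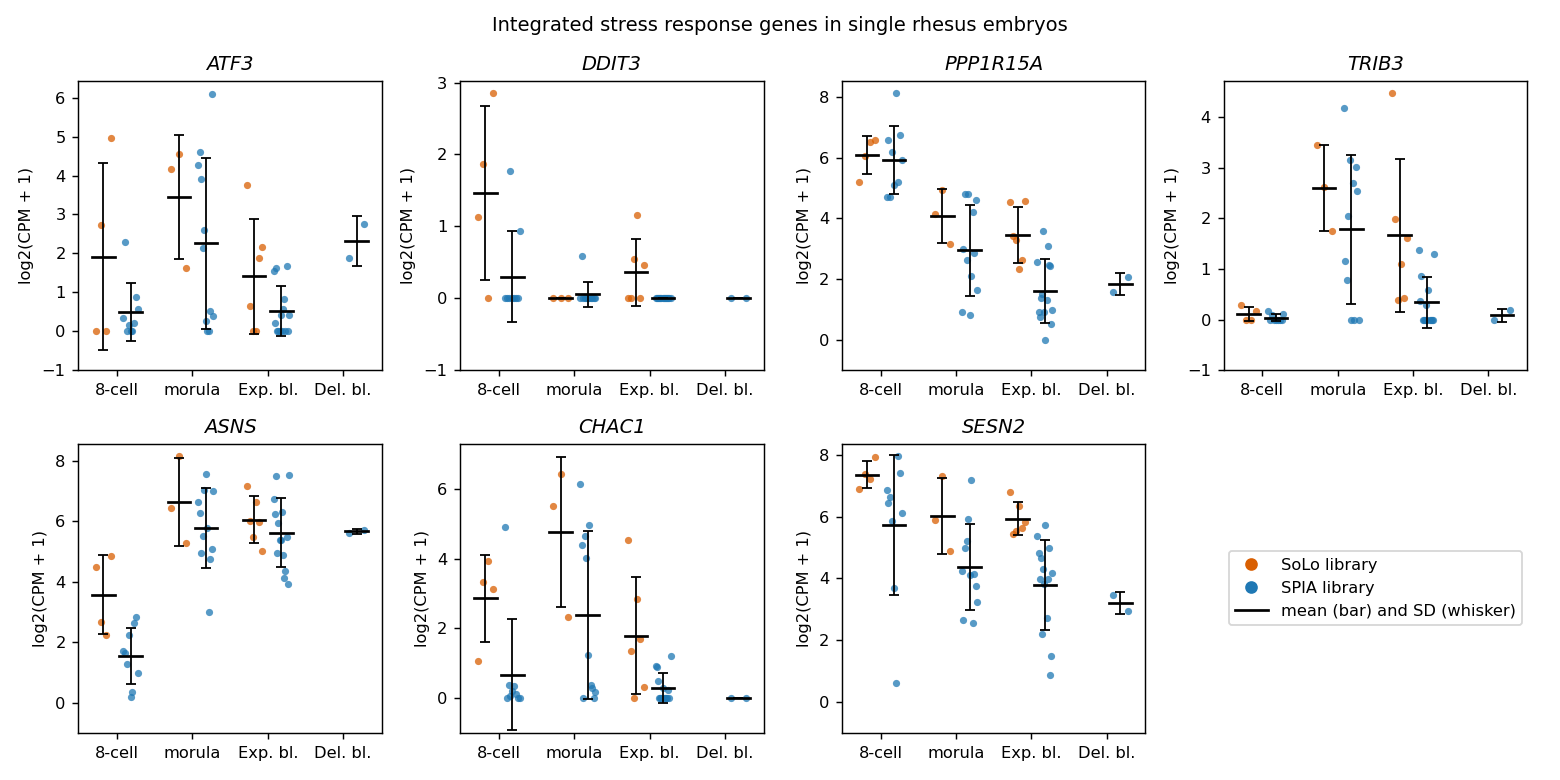
Level of each of the 7 genes, as log2(CPM + 1), in each library by stage (8-cell, morula, expanded blastocyst as Exp. bl., delayed blastocyst as Del. bl.), with SoLo libraries left of SPIA libraries, the mean as a bar and the SD as a whisker. In both kits PPP1R15A was highest at the 8-cell stage, ASNS and TRIB3 were low at the 8-cell stage, and DDIT3 was at or near 0 in most libraries.

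**Figure D2:**
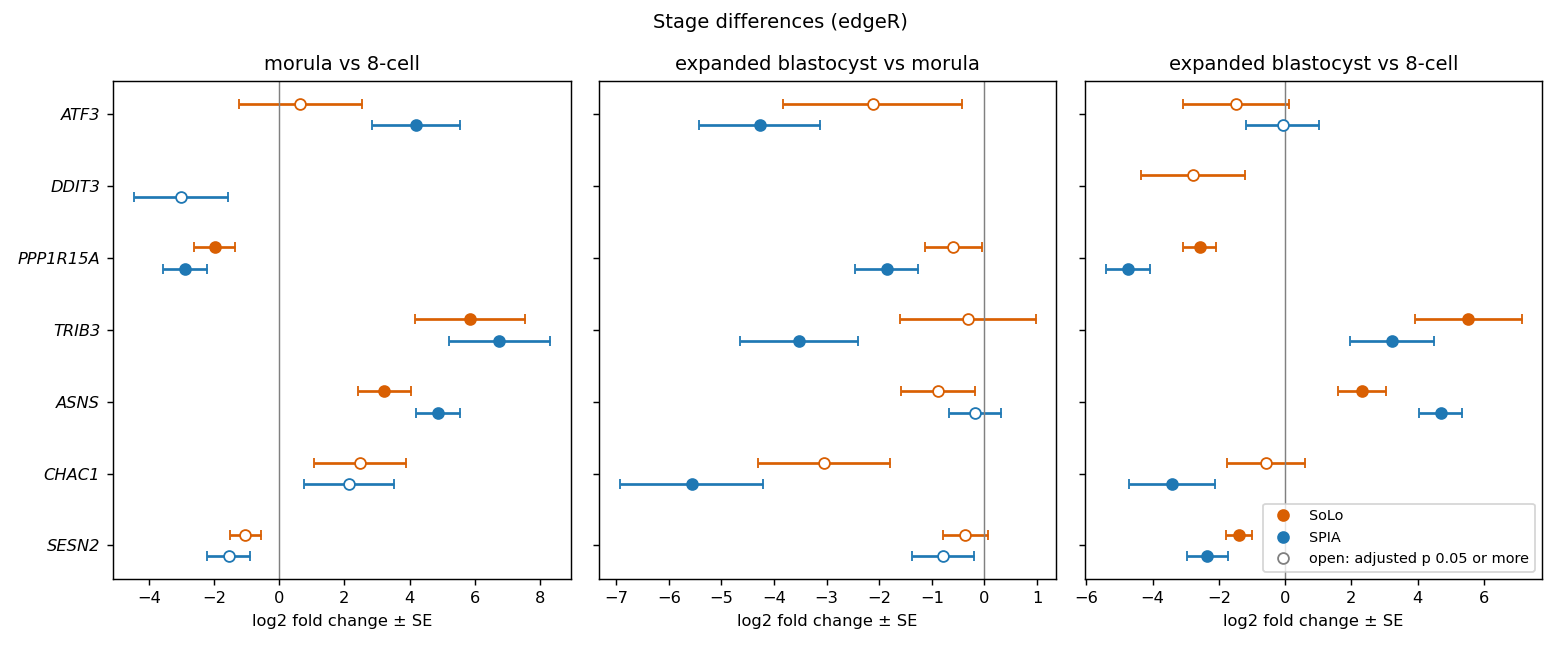
Log2 fold change (x axis) with its standard error for each gene in the 3 stage comparisons, SoLo above SPIA, from edgeR, with filled points for an adjusted p under 0.05. No point is drawn where a compared group had no reads, which leaves DDIT3 with 1 point in the left panel (SPIA) and 1 in the right (SoLo). PPP1R15A, TRIB3 and ASNS are filled in both kits against the 8-cell stage.

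PPP1R15A, also called GADD34, brings protein phosphatase 1 to phosphorylated eIF2alpha and so ends the response. In SoLo it stood at 36.0, 65.8, 89.2 and 95.5 CPM in the 8-cell embryos, at 7.85, 16.7 and 29.7 CPM in the morulas, and at 4.07 (lowest), 9.20 (median) and 22.5 CPM (highest) in the expanded blastocysts. Every SoLo 8-cell embryo lay above every morula and every expanded blastocyst. In SPIA the lowest, median and highest values were 25.1, 59.1 and 276 CPM in 8-cell embryos, 0.778, 6.27 and 26.8 CPM in the morulas, and 0, 1.54 and 10.9 CPM in expanded blastocysts. The SPIA 8-cell embryos lay above all expanded blastocysts, and overlapped the morulas only between 25.1 and 26.8 CPM. Among all genes, groups did not overlap for 2.12% between expanded blastocysts and 8-cell embryos in SPIA, and for 33.2% in SoLo. Between morulas and 8-cell embryos in SoLo the share was 23.9%. In morulas against 8-cell embryos the log2 fold change was -1.99 ± 0.63 in SoLo (SE, adjusted p = 0.0393) and -2.89 ± 0.68 in SPIA (adjusted p = 0.00344). Against 8-cell embryos, expanded blastocysts had -2.58 ± 0.50 in SoLo (adjusted p = 0.000857) and -4.75 ± 0.67 in SPIA (adjusted p = 8.56e-07). From morula to expanded blastocyst the log2 fold change was -0.59 ± 0.54 in SoLo, which did not pass (adjusted p = 0.639), and -1.86 ± 0.60 in SPIA (adjusted p = 0.0296). That last call was lost without morula 020816_04 (adjusted p = 0.0659), 021016_03 (0.0620) or 022916_02 (0.0614). The call of morulas against 8-cell embryos in SoLo was lost on leaving out any of 5 of the 7 libraries, with adjusted p from 0.0617 to 0.118.

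The highest SPIA value, 276 CPM, came from 8-cell embryo 020816_09. The same embryo had 0.547 CPM of SESN2, the lowest of the 9, and 0.273 CPM of ASNS, the second lowest. It also had the lowest sums of the 9 for the genome activation markers (197 CPM) and for immediate-early genes, a list described below (14.9 CPM). The embryo thus differed from the others in more than these genes.

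ATF3 is a transcription factor of the CREB family that is induced downstream of ATF4 and also by other stresses. In SoLo it stood at 0, 0, 5.58 and 30.1 CPM in the 8-cell embryos, at 2.09, 17.1 and 22.5 CPM in the morulas, and at 0 (lowest), 1.62 (median) and 12.6 CPM (highest) in the expanded blastocysts. The SoLo stages overlapped throughout. The 8-cell embryos with reads, 020816_07 and 112815_02, were the ones with the highest sums of cumulus markers there, at 2251 and 1241 CPM. The lowest, median and highest SPIA values were 0, 0.157 and 3.87 CPM in 8-cell embryos, 0, 3.38 and 67.5 CPM in the morulas, and 0, 0.237 and 2.17 CPM in expanded blastocysts. Among the 11 morulas, 6 were above 1 CPM and 5 were at 0.432 CPM or less, so the morulas split within their stage. The highest, 022916_02 at 67.5 CPM, was the morula with 8-cell levels of the genome activation markers. In SPIA the log2 fold change was 4.20 ± 1.36 in morulas against 8-cell embryos (adjusted p = 0.0249) and -4.27 ± 1.14 in expanded blastocysts against morulas (adjusted p = 0.0101). The rise in morulas was lost without morula 022916_02 (3.31, adjusted p = 0.0623) and without the 3 8-cell embryos highest in cumulus markers (3.73, adjusted p = 0.0842). In SoLo the log2 fold changes were 0.64 ± 1.89 (adjusted p = 0.847) in morulas against 8-cell embryos and -2.12 ± 1.70 (adjusted p = 0.581) in expanded blastocysts against morulas.

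DDIT3, which encodes CHOP, a transcription factor tied to cell death under prolonged stress, was close to undetected. In SoLo it stood at 0, 1.20, 2.65 and 6.27 CPM in the 8-cell embryos, at 0 in all 3 morulas, and between 0 and 1.24 CPM in the expanded blastocysts, 3 of which had reads. In SPIA there were reads in 2 of 9 8-cell embryos (2.42 CPM in 020816_07 and 0.910 CPM in 112815_02), in 1 of 11 morulas (0.499 CPM), in 0 of 14 expanded blastocysts and in 0 of 2 delayed blastocysts. All 4 of the SoLo and SPIA libraries of embryos 020816_07 and 112815_02 had DDIT3 reads, and these embryos had the highest cumulus marker sums in both kits. The part of those cells in the DDIT3 reads was not tested. In SoLo the morulas were at least 6.86-fold lower than the 8-cell embryos, with 3 counts per library (0.369 CPM on average) taken as the limit for the morulas against 2.53 CPM in the 8-cell embryos, and the adjusted p was 0.0676. In SPIA morulas against 8-cell embryos, 2 and 75 reads gave a ratio of 0.0330, with an exact 95% counting interval from 0.00393 to 0.123, and the test did not pass (adjusted p = 0.139). The edgeR test called DDIT3 lower in SPIA expanded blastocysts against 8-cell embryos (adjusted p = 0.00464). That call rests on 020816_07 and 112815_02, without which neither group had a read. No fold is given for this comparison. The mean of the 8-cell embryos, 0.370 CPM, was under the limit of 3 counts per library in the expanded blastocysts (0.943 CPM on average).

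TRIB3 is a pseudokinase that ATF4 and CHOP induce and that restrains ATF4 in turn. Its SoLo levels were 0, 0, 0.133 and 0.217 CPM in the 8-cell embryos, 2.36, 5.12 and 9.97 CPM in the morulas, and 0.311 (lowest), 1.59 (median) and 21.4 CPM (highest) in the expanded blastocysts. Every SoLo morula lay above every 8-cell embryo. The lowest expanded blastocyst, at 0.311 CPM, also lay above the highest 8-cell embryo, at 0.217 CPM. Both values came from fewer than 3 counts, so a separation of these stages cannot be read from them. Among all genes in SoLo, 23.9% did not overlap between morulas and 8-cell embryos, and 33.2% between expanded blastocysts and 8-cell embryos. In SPIA the lowest, median and highest values were 0, 0 and 0.132 CPM in 8-cell embryos, 0, 3.14 and 17.3 CPM in the morulas, and 0, 0 and 1.59 CPM in expanded blastocysts. Of the SPIA embryos, 3 of 9 at the 8-cell stage, 8 of 11 morulas and 6 of 14 expanded blastocysts had any TRIB3 read. The 8-cell embryos held 3 reads in all in each kit. The ratios of morulas to 8-cell embryos, scaled by library size, were therefore 76.8 in SoLo (95% counting interval 25.8 to 376) and 166 in SPIA (56.4 to 808). Log2 fold changes were 5.85 ± 1.69 in SoLo (adjusted p = 0.0258) and 6.76 ± 1.55 in SPIA (adjusted p = 0.00268). Intervals cover counting error only.

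The ratio of TRIB3 reads in expanded blastocysts to 8-cell embryos was 43.7 in SoLo (14.7 to 214) and 17.2 in SPIA (5.42 to 87.7). Log2 fold changes of this comparison were 5.53 ± 1.61 in SoLo (adjusted p = 0.0126) and 3.23 ± 1.27 in SPIA (adjusted p = 0.0407). From morula to expanded blastocyst TRIB3 fell by 3.53 ± 1.12 on the log2 scale in SPIA (adjusted p = 0.0273), while the SoLo value was -0.32 ± 1.29 (adjusted p = 0.938). This difference between kits was not tested as such. The SPIA call of expanded blastocysts against 8-cell embryos was lost on leaving out any of 9 single libraries (adjusted p from 0.0557 to 0.0738), and that of expanded blastocysts against morulas was lost without morula 020816_02 (adjusted p = 0.0628). The SoLo call of morulas against 8-cell embryos was lost without 8-cell embryo 020816_07 (adjusted p = 0.0567) or 020816_08 (0.0533) or morula 021016_02 (0.0695), and the SoLo value of expanded blastocysts rested in part on 1 library at 21.4 CPM, without which the log2 fold change was 3.76 (adjusted p = 0.0586).

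ASNS, asparagine synthetase, makes asparagine from aspartate and glutamine and is a standard readout of ATF4 under amino acid shortage. In SoLo it stood at 3.73, 5.30, 21.4 and 28.0 CPM in the 8-cell embryos, at 37.4, 85.6 and 285 CPM in the morulas, and at 31.4 (lowest), 63.0 (median) and 142 CPM (highest) in the expanded blastocysts. In SPIA the lowest, median and highest values were 0.145, 2.12 and 6.19 CPM in 8-cell embryos, 7.06, 53.3 and 187 CPM in the morulas, and 14.2, 41.8 and 183 CPM in expanded blastocysts. All 9 SPIA 8-cell embryos lay below all 11 morulas, as they did below all 14 expanded blastocysts. Expanded blastocysts and 8-cell embryos did not overlap for 2.12% of all genes in SPIA. Of the 15578 genes tested in SPIA, 26 (0.167%) did not overlap between morulas and 8-cell embryos, and ASNS was the only one of the 7 genes among them. Between expanded blastocysts and morulas all 7 overlapped in both kits, where 10.3% of all genes did not overlap in SoLo and 0.0449% in SPIA. In morulas against 8-cell embryos the log2 fold change was 3.22 ± 0.81 in SoLo (adjusted p = 0.0181) and 4.88 ± 0.67 in SPIA (adjusted p = 3.73e-06). Expanded blastocysts against 8-cell embryos gave 2.34 ± 0.73 in SoLo (adjusted p = 0.0231) and 4.70 ± 0.66 in SPIA (adjusted p = 6.52e-07). Between expanded blastocysts and morulas ASNS did not pass in either kit (-0.88 ± 0.70 in SoLo, adjusted p = 0.577, and -0.18 ± 0.49 in SPIA, adjusted p = 0.853). The SPIA calls against 8-cell embryos stayed on leaving out each library in turn and in the embryos without a SoLo library. The SoLo call in morulas was lost without morula 021016_03, the library at 285 CPM (2.10, adjusted p = 0.0735). The SoLo call in expanded blastocysts was lost without 8-cell embryo 020816_07 (2.04, adjusted p = 0.0589) or 020816_08 (2.01, adjusted p = 0.0501).

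CHAC1 degrades glutathione and is induced through ATF4. SoLo libraries held CHAC1 at 1.09, 7.73, 8.99 and 14.2 CPM in the 8-cell embryos, 4.06, 45.0 and 84.8 CPM in the morulas, and 0 (lowest), 1.88 (median) and 22.4 CPM (highest) in the expanded blastocysts. In SPIA the lowest, median and highest values were 0, 0.0784 and 29.0 CPM in 8-cell embryos, 0, 1.36 and 70.1 CPM in the morulas, and 0, 0 and 1.30 CPM in expanded blastocysts. The SPIA morulas formed a high set of 5 embryos at 15.2 to 70.1 CPM and a low set of 6 at 0 to 1.36 CPM, while 8 of the 9 8-cell embryos were at 0.306 CPM or less. The exception was 8-cell embryo 011516_02, with 29.0 CPM from 219 reads. With that embryo the log2 fold change of morulas against 8-cell embryos in SPIA was 2.15 ± 1.38 and did not pass (adjusted p = 0.280). Without it the fold change was 7.00 and passed (adjusted p = 0.00280). CHAC1 fell by 5.57 ± 1.37 on the log2 scale in SPIA expanded blastocysts against morulas (adjusted p = 0.00558). The SoLo value, -3.05 ± 1.25, did not pass (adjusted p = 0.245). In expanded blastocysts against 8-cell embryos the SPIA fold change of -3.42 ± 1.29 (adjusted p = 0.0336) also turned on embryo 011516_02, since without it the value was 1.43 (adjusted p = 0.371). The SoLo fold changes were 2.48 ± 1.41 in morulas against 8-cell embryos (adjusted p = 0.241) and -0.57 ± 1.17 in expanded blastocysts against 8-cell embryos (adjusted p = 0.737).

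SESN2, sestrin 2, is a leucine-binding inhibitor of mTORC1 signalling that ATF4 and p53 induce. Its levels in SoLo were 117, 149.8, 167 and 241 CPM in the 8-cell embryos, 28.4, 58.6 and 159.6 CPM in the morulas, and 42.7 (lowest), 52.1 (median) and 111 CPM (highest) in the expanded blastocysts. In SPIA the lowest, median and highest values were 0.547, 85.1 and 246 CPM in 8-cell embryos, 4.90, 16.9 and 146 CPM in the morulas, and 0.836, 15.9 and 52.5 CPM in expanded blastocysts. In SoLo all 4 8-cell embryos lay above all 6 expanded blastocysts, and in SPIA 7 of the 9 8-cell embryos did. These 2 SoLo groups did not overlap for 33.2% of all genes. In expanded blastocysts against 8-cell embryos the log2 fold change was -1.40 ± 0.40 in SoLo (adjusted p = 0.0119) and -2.35 ± 0.62 in SPIA (adjusted p = 0.00283). The step to the morula did not pass in either kit, at -1.04 ± 0.49 in SoLo (adjusted p = 0.152) and -1.56 ± 0.66 in SPIA (adjusted p = 0.0845). The SPIA value passed without 8-cell embryo 020816_09 (-1.73, adjusted p = 0.0400) or without morula 022416_02, the one at 146 CPM (-2.19, adjusted p = 0.0184). In SoLo it passed without morula 021016_03, at 159.6 CPM (-1.93, adjusted p = 0.0103). Between expanded blastocysts and morulas the values were -0.36 ± 0.44 in SoLo (adjusted p = 0.733) and -0.79 ± 0.59 in SPIA (adjusted p = 0.400).

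In expanded blastocysts against 8-cell embryos, the ATF4 targets ASNS and SESN2 thus changed in opposite directions in both kits, and PPP1R15A changed in the same direction as SESN2. The SoLo call of ASNS depended on single 8-cell libraries, as given with its values. The 3 embryos highest in cumulus markers were all at the 8-cell stage, and 3 further SPIA 8-cell embryos, at 114, 218 and 259 CPM of these markers, remained in the fits that left out the highest 3. Without the highest 3, morulas against 8-cell embryos gave 3 calls in SPIA, and expanded blastocysts against 8-cell embryos gave 4. In SoLo their removal leaves 1 8-cell embryo, 020816_08, which is assumed to vary like the other groups. The calls were then 0 in morulas and 1 in expanded blastocysts against it, with ASNS at log2 fold changes of 5.18 (adjusted p = 0.0513) and 4.30 (adjusted p = 0.0515). Within title code 020816, which held 3 morulas and 5 8-cell embryos in SPIA, 5 of the genes could be tested and 0 were called, where 4 of all 11244 genes tested were. There the log2 fold changes of morulas against 8-cell embryos were 8.19 for ATF3, -2.76 for PPP1R15A, 8.40 for TRIB3 and 5.11 for ASNS, with adjusted p from 0.178 to 0.447 for these 4 genes.

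The 2 embryos labelled delayed blastocyst were sequenced with SPIA, and both carry title code 112515, as do 2 of the expanded blastocysts. They stood at 2.66 and 5.79 CPM for ATF3, against a highest value of 2.17 CPM in the 14 expanded blastocysts, but expanded blastocyst 111715_05 had 0 reads in a library where 3 counts are 6.85 CPM, so a separation of the groups cannot be read from these values. Their ASNS values were 47.9 and 51.7 CPM, within the range of 14.2 to 183 CPM of the expanded blastocysts. Their PPP1R15A values, 2.00 and 3.23 CPM, and SESN2 values, 6.73 and 9.98 CPM, also lay within the ranges of the expanded blastocysts. CHAC1 and DDIT3 had no reads in either, and TRIB3 had 1 read. By edgeR 0 of the 6 genes tested were called, as were 0 of all genes (0.0%), and none of the 6 had an unadjusted p under 0.05. DESeq2 called 25 genes, none of them among these. The log2 fold change of ATF3 in delayed against expanded blastocysts was 2.76 ± 1.60 (unadjusted p = 0.0907, adjusted p = 1.00).

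Lists of genes around the pathway were read in the same fits, 9 lists drawn up from textbook knowledge with earlier results of these data known. The lists on the pathway itself, without those of immediate-early genes and p53 targets, held 70 genes tested in SoLo and 71 in SPIA. In morulas against 8-cell embryos 21 were called higher and 1 lower in SoLo, and 10 higher and 6 lower in SPIA. The shares over all genes were 9.78% higher and 6.92% lower in SoLo, and 9.06% higher and 10.3% lower in SPIA. Against 8-cell embryos, expanded blastocysts had 21 listed genes called higher and 6 lower in SoLo, and 17 higher and 9 lower in SPIA. Here the shares over all genes were 18.6% higher and 19.8% lower in SoLo, and 12.9% higher and 23.7% lower in SPIA. In expanded blastocysts against morulas 0 of the listed genes were called higher and 1 lower in SoLo, and 1 higher and 3 lower in SPIA. There the shares over all genes were 0.113% higher and 1.03% lower in SoLo, and 4.71% higher and 9.95% lower in SPIA. The median log2 fold change of the listed genes in morulas against 8-cell embryos was 0.79 in SoLo and 0.51 in SPIA. That of all genes was -0.06 in SoLo and -0.14 in SPIA. The counts of single lists that follow are to be read beside the same shares.

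Of the 10 genes of eIF2alpha kinases and phosphatase regulators tested in morulas against 8-cell embryos, 2 were called higher and 0 lower in SoLo, and 1 higher and 3 lower in SPIA. In SPIA morulas EIF2AK2, the kinase PKR that senses double-stranded RNA, fell by 4.93 ± 1.24 on the log2 scale (adjusted p = 0.00530). DELE1 and OMA1, which relay mitochondrial stress to the pathway, fell by 3.38 and 2.17 in SPIA. The eIF2B subunit EIF2B1, part of the exchange factor that phosphorylated eIF2alpha blocks, fell by 2.58 in SPIA. In SoLo none of these 4 genes was called in morulas. In expanded blastocysts against 8-cell embryos EIF2B1 was lower in both kits, by log2 fold changes of -1.26 ± 0.27 in SoLo (adjusted p = 0.00172) and -2.20 ± 0.62 in SPIA (adjusted p = 0.00484).

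Of the amino acid synthesis genes, 2 of 10 were called higher and 0 lower in SoLo morulas against 8-cell embryos, and 2 of 11 higher and 1 lower in SPIA morulas. SLC7A3, a transporter of cationic amino acids, was called higher in morulas against 8-cell embryos in both kits, with log2 fold changes of 3.90 ± 1.20 in SoLo (adjusted p = 0.0475) and 4.60 ± 1.15 in SPIA (adjusted p = 0.00563). GPT2, a mitochondrial alanine transaminase, rose by 3.04 ± 0.76 in SoLo (adjusted p = 0.0136) and by 2.74 ± 0.68 in SPIA (adjusted p = 0.00499). PSAT1, of serine synthesis, rose by 3.79 in SPIA, and SLC6A9, a glycine transporter, by 5.29 in SoLo. PCK2, mitochondrial phosphoenolpyruvate carboxykinase, was called lower in SPIA morulas, where its reads at the 8-cell stage came from few embryos, so no fold is given. Of 13 aminoacyl-tRNA synthetase and tRNA export genes, 8 were called higher and 0 lower in SoLo morulas, and 4 higher and 1 lower in SPIA morulas. CARS1, the cysteinyl-tRNA synthetase, was among those called higher in both kits, and YARS1, the tyrosyl-tRNA synthetase, was the one called lower in SPIA (-1.44) and was called higher in SoLo (1.07).

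Among other targets, JDP2, a repressor of the AP-1 family, rose by 2.58 ± 0.82 in SoLo morulas (adjusted p = 0.0394) and by 5.87 ± 1.32 in SPIA morulas (adjusted p = 0.00228) against 8-cell embryos. BBC3, the cell death gene PUMA, was called higher in SoLo morulas, with no read in any 8-cell embryo of either kit, so no fold is given. VLDLR, a lipoprotein receptor, fell by 3.32 in SoLo morulas. HSP90B1, a chaperone of the endoplasmic reticulum in the ATF6 branch, rose by 3.40 ± 0.21 in SoLo morulas (adjusted p = 5.85e-08) and by 2.36 ± 0.44 in SPIA morulas (adjusted p = 0.000363). Of the 12 genes of the ATF6 and XBP1 branches, 5 were called higher in SoLo and 1 in SPIA, and 0 lower in either. Of the 9 immediate-early genes, which are induced by handling and growth signals, 0 were called in SoLo and 1, KLF6, was called higher in SPIA (2.66).

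From morula to expanded blastocyst few of these genes were called. HSPA5, the chaperone BiP, was lower in SoLo expanded blastocysts (-1.50 ± 0.21, adjusted p = 0.00392). In SPIA, SLC38A2, a neutral amino acid transporter, was higher (3.03), and CEBPB, a transcription factor that pairs with CHOP (-4.03), SLC1A5, a glutamine transporter (-2.03), and SARS1, the seryl-tRNA synthetase (-1.90), were lower. In expanded blastocysts against 8-cell embryos the higher calls in both kits included SLC7A3 (5.90 in SoLo and 6.16 in SPIA) and JDP2 (4.18 in SoLo and 7.53 in SPIA). The others with the largest higher calls were BBC3, PHGDH of serine synthesis, KLF6 and the aspartate transaminase GOT1 in SPIA, and BBC3, the p53 target TP53I3, SLC6A9 and HSP90B1 in SoLo. The lower calls in both kits included VLDLR (-5.02 in SoLo and -2.06 in SPIA) and SLC1A5 (-3.14 in SoLo and -3.90 in SPIA). The others with the largest lower calls were the immediate-early gene FOSB, PCK2, DELE1 and the secreted hormone STC2 in SPIA, and the cell death gene BCL2L11, SARS1 and MYC in SoLo. Cumulus markers were high at the 8-cell stage in both kits, and their part in these pathway differences was not tested.

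**Figure D3:**
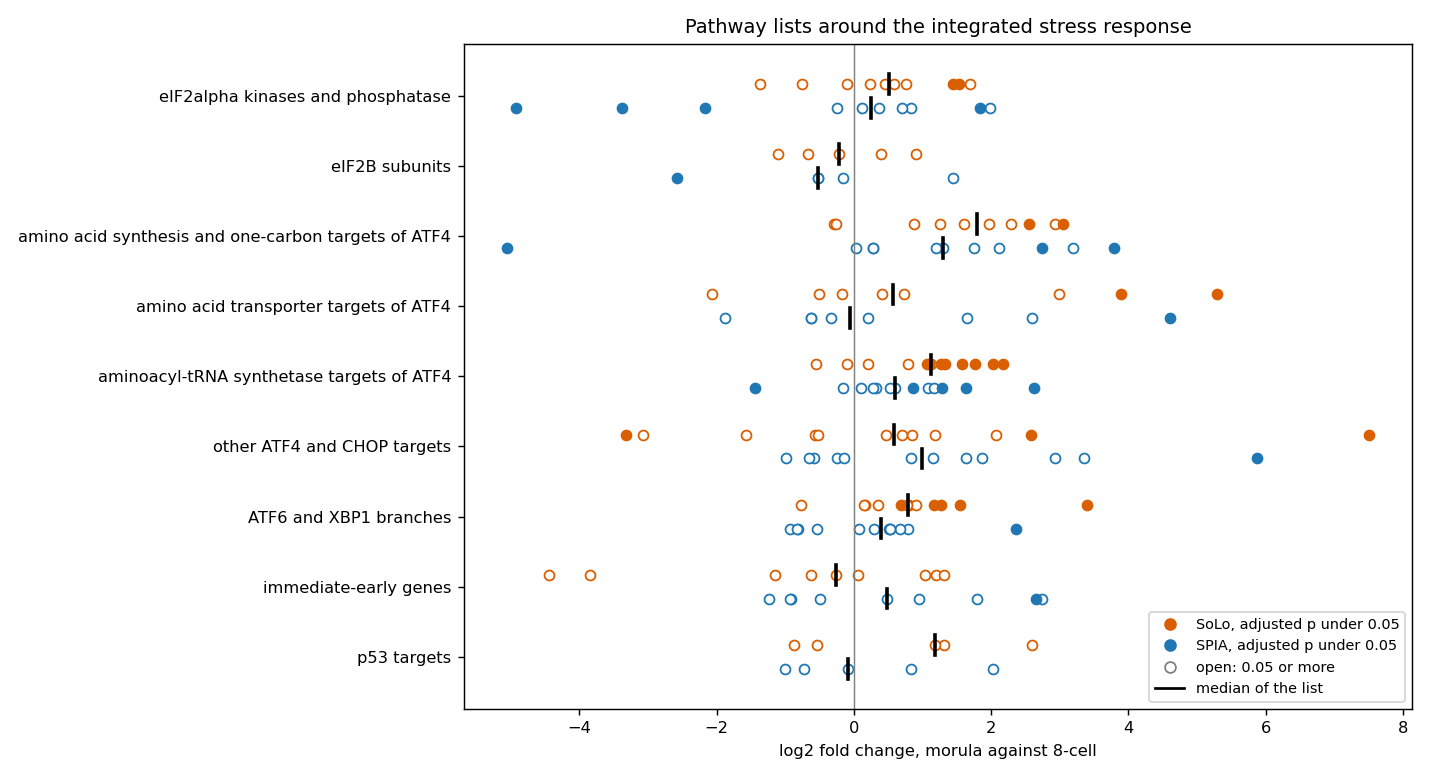
Log2 fold change of morulas against 8-cell embryos (x axis) for each gene of the 9 pathway lists, SoLo above SPIA, with filled points for an adjusted p under 0.05 and a black bar at the median of each list. Of the 13 genes of aminoacyl-tRNA synthetases and tRNA export, 8 are filled in SoLo and 5 in SPIA. Called at this threshold were 16.7% of all genes in SoLo and 19.4% in SPIA. The lists of eIF2alpha regulators and eIF2B subunits have filled points on the left in SPIA. The SoLo point farthest to the right is BBC3, which had no reads in 8-cell embryos, so its place on the axis is no measured fold.

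Both kits could be set against each other in 11 embryos that have a library in each. CHAC1 was the only one of the 7 genes called, at 13.0 ± 21.5 CPM in SoLo and 5.86 ± 13.0 CPM in SPIA (SD, n = 11 each), with reads in 10 of 11 SoLo and 7 of 11 SPIA libraries. Its log2 fold change, with stage in the model, was 3.38 ± 1.01 (adjusted p = 0.0174). Of all genes, 18.5% were called, 8.58% higher and 9.87% lower in SoLo than in SPIA. Without expanded blastocyst 111715_02 the CHAC1 value was 2.85 and did not pass (adjusted p = 0.0595). ATF3 averaged 6.16 ± 8.62 CPM in SoLo and 1.44 ± 2.78 CPM in SPIA, with a log2 fold change of 3.15 ± 1.23 that did not pass (adjusted p = 0.0748). The other 5 genes had log2 fold changes between 0.15 and 1.79, none of which passed. Mean levels went the other way for TRIB3 (1.59 CPM in SoLo and 2.70 CPM in SPIA) and PPP1R15A (28.2 and 34.0 CPM). Those of ASNS were 51.0 and 50.9 CPM, and those of DDIT3 and SESN2 were higher in SoLo. No gene of any kind passed the test of whether the step from 8-cell to morula differed between kits (0.0%), and 0 of the 6 members tested had an unadjusted p under 0.05. For CHAC1 this difference, SoLo minus SPIA, was -4.22 ± 2.06 by edgeR (unadjusted p = 0.0503, adjusted p = 0.608). For ASNS it was -2.20 ± 1.11 (unadjusted p = 0.0591, adjusted p = 0.635). With 4 8-cell embryos and 3 morulas in this test, a miss does not show that the kits agree.

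Deviations of an embryo from its stage mean were next compared between the kits, over the same 11 embryos, with exact permutation of embryos within stages (two-sided, 7 genes). ATF3 had r = 0.67 (exact permutation p = 0.00694, adjusted p = 0.0486) and rho = 0.79 (adjusted p = 0.0729), and r = 0.77 without the 2 embryos farthest from the median. Among the morulas, 021016_02 and 021016_03 lay above their stage mean in both kits and 022916_01 below it in both. With log2(CPM + 0.1) in place of log2(CPM + 1) the ATF3 correlation missed the threshold (r = 0.76, adjusted p = 0.0729). PPP1R15A had r = 0.71 (exact permutation p = 0.0379, adjusted p = 0.133) and ASNS r = 0.61 (adjusted p = 0.292). For CHAC1 the correlation was 0.63, for DDIT3 0.61, for SESN2 0.16 and for TRIB3 -0.66, with adjusted p from 0.403 to 0.634 by the same exact permutation. The median over the 7 genes was 0.607, and that over 13534 genes was 0.227. For TRIB3 the SPIA deviations of the 4 expanded blastocysts rest on 0, 0, 0 and 2 reads. In SPIA, DDIT3 had reads in 2 of these 11 embryos, ATF3 and TRIB3 in 6 each and CHAC1 in 7. Embryos of a stage without reads share a value, which limits these correlations and the median of 0.607.

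**Figure D4:**
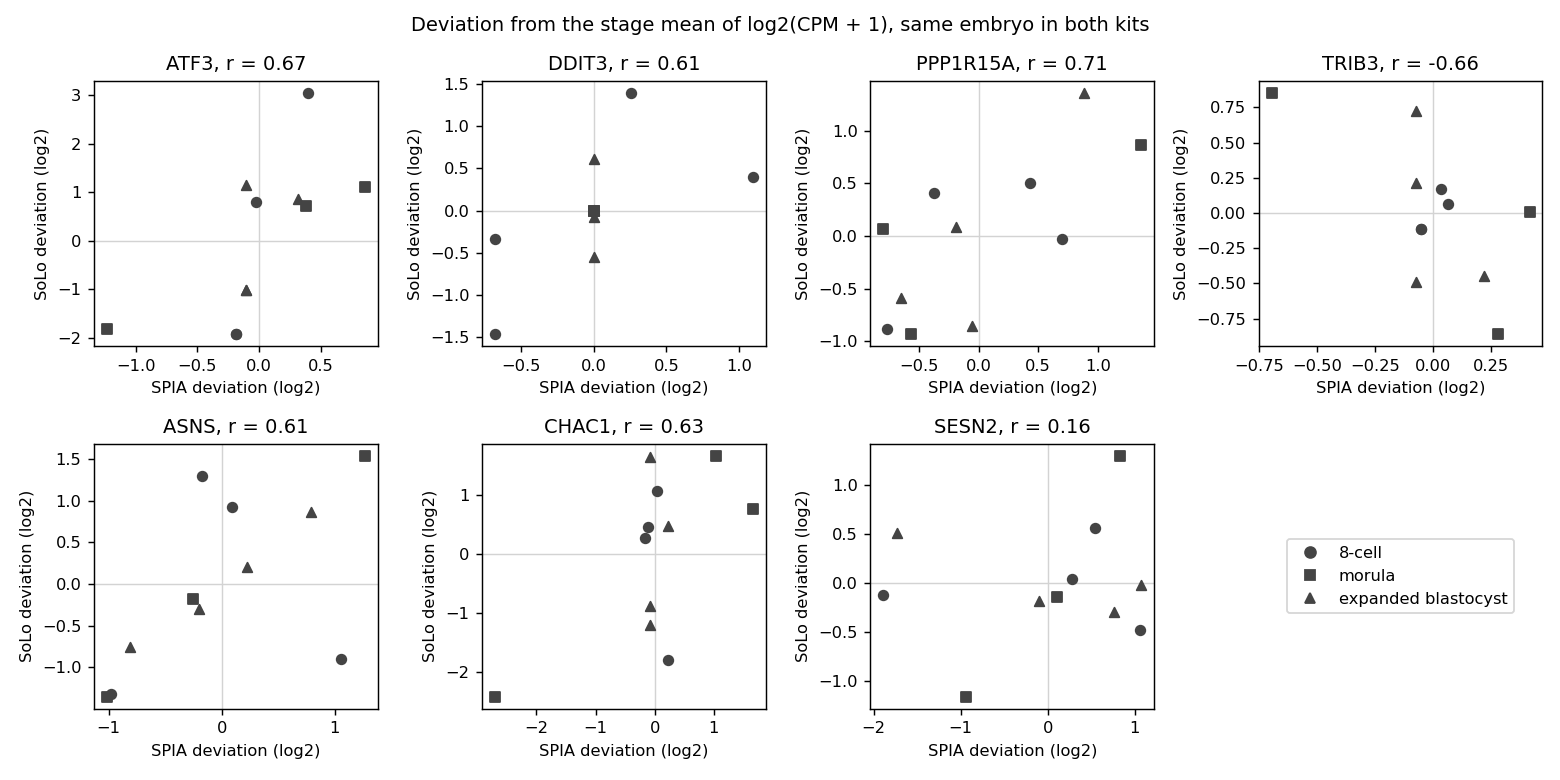
Deviation of each of 11 embryos from its stage mean of log2(CPM + 1), in SPIA on the x axis and in SoLo on the y axis, with stages as symbols and Pearson's r in each title. Points run from the lower left to the upper right for ATF3 (r = 0.67) and PPP1R15A (r = 0.71), while r is -0.66 for TRIB3.

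Co-variation of the genes over embryos was examined within each SPIA stage, with 21 pairs in 9 8-cell embryos, 21 in 11 morulas and 15 in 14 expanded blastocysts, where DDIT3 had no reads. None of the 57 pairs passed Benjamini-Hochberg adjustment by Pearson's r or by Spearman's rho, and 5 had an unadjusted permutation p under 0.05. The median r of the pairs was 0.01 in 8-cell embryos, 0.12 in morulas and 0.28 in expanded blastocysts, beside 0.01, 0.00 and 0.02 over all gene pairs read at those stages. The lowest p-values belonged to the ATF4 targets TRIB3, CHAC1 and ASNS in expanded blastocysts. TRIB3 and CHAC1 had r = 0.84 (permutation p = 0.00172, adjusted p = 0.0573) and rho = 0.81 (permutation p = 0.00117, adjusted p = 0.0667), and r = 0.57 without the 2 embryos farthest from the median. ASNS and CHAC1 had r = 0.74 (permutation p = 0.00201, adjusted p = 0.0573) and rho = 0.72, with r = 0.64 without 2 embryos. TRIB3 and ASNS had r = 0.72 (permutation p = 0.00361, adjusted p = 0.0601) and rho = 0.60, with r = 0.57 without 2 embryos. Embryos 112515_04 and 111215_01 had the highest values of both TRIB3 and CHAC1, and their ASNS stood at 183 and 105 CPM. CHAC1 had at most 17 reads and TRIB3 at most 9 in any of these libraries, and the 8 embryos without CHAC1 reads share a value.

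Among the 6 SoLo expanded blastocysts, where these genes had more reads, 15 of 21 pairs were positive with a median r of 0.540. After adjustment over these 21, 0 passed. The median over all gene pairs was not computed for SoLo, so this median has no background to be read against. ASNS and CHAC1 had r = 0.96 (exact permutation p = 0.00833, adjusted p = 0.175) and rho = 0.89, with r = 0.98 without 2 libraries. CHAC1 and SESN2 had r = 0.88 (exact permutation p = 0.0208, adjusted p = 0.219). TRIB3 and CHAC1 had r = 0.74 (exact permutation p = 0.0833, adjusted p = 0.301), which turned to -0.43 without 2 libraries. The library highest for TRIB3, ASNS, CHAC1, SESN2 and ATF3 alike was 1 of the pair labelled 111215 without a number, at 21.4 CPM of TRIB3, 142 CPM of ASNS, 22.4 CPM of CHAC1, 111 CPM of SESN2 and 12.6 CPM of ATF3. All 6 libraries come from embryos that are also among the 14 in SPIA, by their titles, although the data columns of the 111215 pair do not say which embryo is which.

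At the other stages, ASNS and SESN2 in 8-cell embryos had r = 0.79 (exact permutation p = 0.00422, adjusted p = 0.0601) and rho = 0.78, with r = 0.63 without 2 embryos. TRIB3 and CHAC1 had r = 0.76 in 8-cell embryos (exact permutation p = 0.0456, adjusted p = 0.520) and 0.58 in morulas (permutation p = 0.0648, adjusted p = 0.527). The 8-cell value for TRIB3 rests on 3 reads. PPP1R15A and ASNS had r = -0.55 in morulas (permutation p = 0.0763, adjusted p = 0.543).

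**Figure D5:**
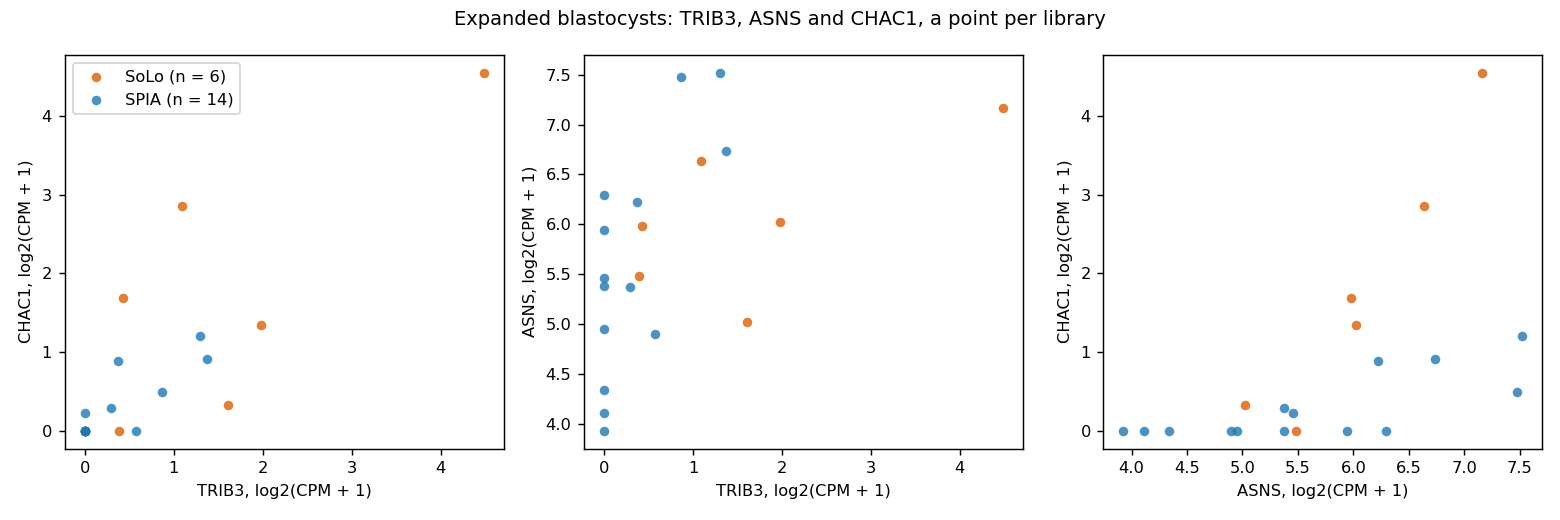
TRIB3, ASNS and CHAC1 plotted against each other in expanded blastocysts as log2(CPM + 1), a point per library, with 6 SoLo and 14 SPIA libraries. Libraries with CHAC1 reads have higher ASNS on the whole in both kits (r = 0.96 in SoLo and 0.74 in SPIA), and many SPIA libraries lie at 0 for TRIB3 or CHAC1.

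The genes whose deviations from the stage mean were most like those of each member over 34 SPIA libraries were read off among 12018 named genes, as a description without a test. For TRIB3 they were PTPN23 (r = 0.72), ATXN7L1 (0.68) and PHLDB2 (0.66), with CHAC1 at rank 77 (r = 0.52). For CHAC1 they were FIBP (0.72), CNPPD1 (0.71) and ERCC1 (0.65), with TRIB3 at rank 54. For ASNS they were SWAP70 (0.64), RAB33B (0.62) and TMEM59 (0.62), with SESN2 at rank 141. SESN2 was most like IDH3G (0.74), MAML1 (0.73) and WDR45 (0.71). The nearest genes to PPP1R15A were FIZ1 (0.77), GLCE (0.71) and PTPN9 (0.64), while ASNS stood near the other end of its order at rank 11738 (r = -0.37). Among the nearest genes to ATF3 were LINGO2 (0.76) and TAMALIN (0.70). Those near to DDIT3, such as INSYN1 (0.98) and DHRS9 (0.94), rest on the 3 SPIA libraries with DDIT3 reads. No member was among the 3 genes nearest to another, and the libraries share a kit and a range of depths.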

How the data were processed

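Per the labels' protocols, total RNA of each embryo was made into SPIA or SoLo libraries (NuGEN Ovation kits). The deposited table holds whole-number counts per gene made by the authors. HISAT2 and DESeq2 are named in the submitters' processing notes, and no source used here gives the genome build or the counter. Of its columns, 49 were matched to samples by title, and 3 with per-sample values were not used. Gene names came from Ensembl identifiers in a name table.

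The 7 genes, their identifiers in parentheses, are ATF3 (ENSMMUG00000012185), DDIT3 (ENSMMUG00000011286), PPP1R15A (ENSMMUG00000009223), TRIB3 (ENSMMUG00000012600), ASNS (ENSMMUG00000019157), CHAC1 (ENSMMUG00000014542) and SESN2 (ENSMMUG00000019993). These genes, the pathway lists and the marker lists were chosen with earlier results of these data known. From the lists, the text names at most the 6 genes with the largest fold change called in each direction of a comparison. HSP90B1 in SPIA morulas, CARS1 and YARS1 in SoLo morulas and VLDLR in SPIA expanded blastocysts fall outside that rule and were chosen after their values were seen. The 3 named genes most like each member are given, except that 2 of them are not reported here.

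Each kit was fitted apart with edgeR 4.0.16 (filterByExpr, TMM, robust quasi-likelihood test, stage as factor) in R 4.3.3. P-values were adjusted by Benjamini-Hochberg over all 14196 genes tested in SoLo and 15578 in SPIA, with a threshold of 0.05. Kits were compared in 11 embryos with both libraries, stage in the model. Alternatives were DESeq2 1.42.0, its size factors in edgeR, no filter, limma 3.58.1 voom with the title code as a random block, libraries above a minimum depth, leaving out each library, the 3 embryos highest in cumulus markers, and the SPIA embryos without a SoLo library. Correlations used log2(CPM + 1) in scipy 1.17.1, with exact permutations in groups under 10 and 100000 resamples otherwise. Checks on simulated data covered the edgeR fit of stages and the correlation test, and did not cover the other procedures. In simulated SPIA counts the share of false calls came out above the threshold, and in simulated SoLo counts below it.

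Titles pair the libraries of an embryo between kits. In 10 of 11 pairs the deviations from the stage mean correlated above 0.1 (median 0.222), and 10 libraries were most like their own partner. Nothing states that embryos within a stage come from separate females.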

Additional observations from a re-analysis of the deposited data

Results flagged for a closer look

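In 21 groups of 4 to 10 libraries, 2 held a library far from the others. The threshold is meant to flag about 1 in 20 groups by chance. That rate need not hold for groups with many libraries at or near 0 reads. Both flagged groups were of this kind, with 3 of 9 libraries at 0. In SPIA 8-cell embryos ATF3 stood at 3.87 CPM in 011516_03, where the group median was 0.157 CPM. On the log2(CPM + 1) scale the gap to the next embryo was 0.618 of the range of the group. In the same group CHAC1 stood at 29.0 CPM in 011516_02, where the median was 0.0784 CPM, and the gap on that log2 scale was 0.921 of the range. That embryo had 218 CPM of summed cumulus markers, the median of the group, and the part of those cells in its CHAC1 reads was not tested. Both embryos carry title code 011516, and neither has a SoLo library.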

How the results depend on the processing

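Counts of calls among the 7 genes stayed within 1.5 times under DESeq2, its size factors and no filter in every comparison. In the SPIA embryos without a SoLo library, a setting chosen after seeing the data, calls were 2 in morulas against 8-cell embryos (4 in all embryos), 1 in expanded blastocysts against morulas (4) and 3 in expanded blastocysts against 8-cell embryos (6). Within title code 020816 there were 0 calls, and with the title code as a block in voom (correlation -0.03) 0 in expanded blastocysts against morulas. Without the 3 embryos highest in cumulus markers, SoLo calls against the 8-cell stage were 0 in morulas and 1 in expanded blastocysts, with 1 8-cell library left. The correlation between kits passed for 0 genes with log2(CPM + 0.1). On leaving out each library, calls ranged from 3 to 5, 3 to 4 and 4 to 6 in the 3 SPIA stage comparisons in the order above, from 1 to 3, 0 to 0 and 3 to 4 in the same comparisons in SoLo, and from 0 to 1 between kits. The fewest were reached without morula 022916_02 (3), 8-cell embryo 011516_02 (4), SoLo 8-cell embryo 020816_07 or morula 021016_02 (1), and blastocyst 111715_02 (0). The following values changed sign, and the cause was not tested except where fewer samples remain by construction. In SPIA expanded blastocysts against 8-cell embryos ATF3 (-0.07) was 0.027 with DESeq2's size factors, 0.063 in DESeq2, 0.71 in voom and 0.086 in the deeper libraries, and ranged from -0.39 to 1.32 on leaving out single libraries. In the same comparison CHAC1, called at -3.42, was 0.21 in voom and ranged from -3.83 to 1.43. In the embryos without a SoLo library SESN2 was 0.28 in expanded blastocysts against morulas. In delayed against expanded blastocysts PPP1R15A was 0.33 in voom, 0.064 in the deeper libraries and 1.89 within title code 112515, and ASNS was 0.036 in voom. Without the embryos highest in cumulus markers ATF3 was 7.64 and DDIT3 4.52 in SoLo expanded blastocysts against 8-cell embryos. The 8-cell embryo left there, 020816_08, had 0 reads of both genes in SoLo, so these values are no measured folds. On leaving out single libraries, values changed sign for ASNS in SPIA expanded blastocysts against morulas (-0.40 to 0.057), for PPP1R15A in delayed against expanded blastocysts (-0.59 to 0.13), for TRIB3 (-2.09, or -0.69 with the unnumbered libraries kept, to 0.32), ASNS (-1.33 to 0.24) and SESN2 (-0.77 to 0.54) in SoLo expanded blastocysts against morulas, for ATF3 in SoLo expanded blastocysts against 8-cell embryos (-2.72, or -1.90 with the unnumbered libraries kept, to 0.76), and for PPP1R15A between kits (-0.012 to 0.36) and in the difference of the kits' stage effects (-0.47 to 0.50). With the embryo as a replicate block, the pairing of kits gave 1 call, as without it (2901 against 2717 genes called in all), and changed no other call, while PPP1R15A in the difference of the kits' stage effects became 0.054. Of 293 values under other settings, 250 kept their direction and side of the threshold. DDIT3, TRIB3 and CHAC1 had few or no reads in many libraries, which limits what depth can show, and relaxin could not be modelled.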
